A study of Arabidopsis thaliana with 6 samples.

Results

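Transcripts of the chloroplast genome were examined in root tips of dark-grown Arabidopsis thaliana seedlings, grouped by the protein complex that each gene serves. The members were the probe sets whose symbol in the platform annotation is a chloroplast gene name and whose gene IDs all lie on the plastid chromosome in RefSeq. There were 77 such probe sets for 76 genes, of 22746 probe sets on the array that are not controls. The study held 3 red light samples and 3 dark samples, 1 array each. All came from 7 day old seedlings kept in darkness at 23 °C. Red light samples then had 1 h of red light (peak 630 nm, 12 to 14 µmol per square metre and second), and dark samples had 1 h of further darkness. Each sample was 1 cm of root tip pooled over several plates. The comparison addresses how root transcripts respond to a short red light exposure.

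The plastid genome encodes a core part of each photosynthetic complex, of the plastid ribosome and of the bacterial-type plastid RNA polymerase, while most other plastid proteins are nuclear-encoded and imported. In leaves this polymerase, guided by nuclear-encoded sigma factors, transcribes most photosynthesis genes, and a phage-type nuclear-encoded polymerase transcribes others, such as the rpoB operon and accD. Many plastid genes are transcribed together as operons and then cut and trimmed. Root plastids are non-green and carry few photosynthetic transcripts. Plastid transcripts mostly lack long poly(A) tails, and per the labels the first strand here was primed with an oligo-dT primer, which pairs with such tails.

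The signals are MAS5 intensities, with the same trimmed mean on every array to within rounding. The control probe sets divide the arrays by the ratio of 3' to 5' signal of the GAPDH transcript. Red light 1, dark 1 and dark 3 had ratios of 20.2 to 26.2, and red light 2, red light 3 and dark 2 had ratios of 0.981 to 1.45. These are called the high-ratio and the low-ratio class below, and each holds both treatments. Every change is a log2 value, red light minus dark. They come from limma, fitted over 13647 probe sets above the filter on low values (a mean signal of 88.4), with the array class in the fit unless group alone is named. The labels name the tissue as root. The summed signal of 4 named root marker probe sets, of which SCN1 alone gave 1403 to 3098, was 2454 to 5018 in red light and 3713 to 5637 in the dark. The sum of 10 nuclear photosynthesis genes, taken as markers of shoot tissue, was 1627 to 4463 in red light and 2416 to 3930 in the dark, so the groups overlapped in both. No probe set was listed at 0, so a listed value does not show that a marker was present. The photosynthesis gene LHCB4.2 fell to 9.7 on dark 3 and the root marker EXPA7 to 16.6 on red light 1. The part of the markers in the results was not tested. In pooled tissue, fewer cells with a transcript and less transcript per cell cannot be told apart.

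Of the 77 member probe sets, 47 passed the filter, each for a different gene. The only member called higher in red light was psaB, for a large protein at the heart of photosystem I. That is 1 of 47 or 2.1%, beside 0.0806% of all tested probe sets called higher. The call needed array class in the fit and was lost in several alternatives given below. With group alone limma called 0 members and 0% of all probe sets, while 13 members and 1.89% of all tested probe sets had an unadjusted p under 0.05. With array class 9 members had an unadjusted p under 0.05, beside 6.88% of all tested probe sets. The filter took the mean over all arrays. For psaB, rpoC2, ycf4, atpF, ndhA and rbcL the dark mean lay below it, so they passed through their red light signals. The changes of the members lay mostly above 0, in 42 of 47 genes (89.4%) against 45.8% of all tested probe sets. Without the filter it was 66 of 77 member probe sets. The median change of the 47 genes was 0.92, against -0.03 over all tested probe sets.

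That median depended on single arrays. The median log2 signal of the 47 genes was 7.85, 9.82 and 9.37 in red light 1, 2 and 3, against 7.94, 7.56 and 8.94 in dark 1, 2 and 3. Dark 2 was the lowest array for 26 of the 47 genes and the highest for none. Without dark 2 the low-ratio class held only red light arrays, so the fit with array class set red light 1 alone against dark 1 and 3. The median change was then -0.09, and 19 of 47 genes lay above 0. That fit assumes that the lone array varies like the others. In it the change was 2.00 for psaB, 1.74 for rpoA and -2.20 for rpl20. Without red light 1, where dark 2 is the lone array, the median was 1.80. The members' signals on dark 2 added up to 0.179% of the signal of all probe sets, against 0.311% to 0.431% on the 3 red light arrays and 0.312% and 0.335% on the other dark arrays. Much of that sum came from psbM and rps4, which were higher on high-ratio arrays. They gave 28542 and 8972 of a summed 54966 on dark 1, against 7333 and 2002 of 26489 on dark 2. The share without these genes was not computed, so this share does not show that the other members were lowest on dark 2. Mitochondrial transcripts were also lowest on dark 2. The median log2 signal of the 12 tested mitochondrion-encoded probe sets was 7.96, 6.96 and 7.24 in red light 1, 2 and 3, against 7.57, 6.26 and 8.07 in dark 1, 2 and 3. The median over all tested probe sets did not follow it, at 8.60 to 8.82 in red light and 8.58 to 8.88 in the dark, with its highest value on dark 2.

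**Figure D1:**
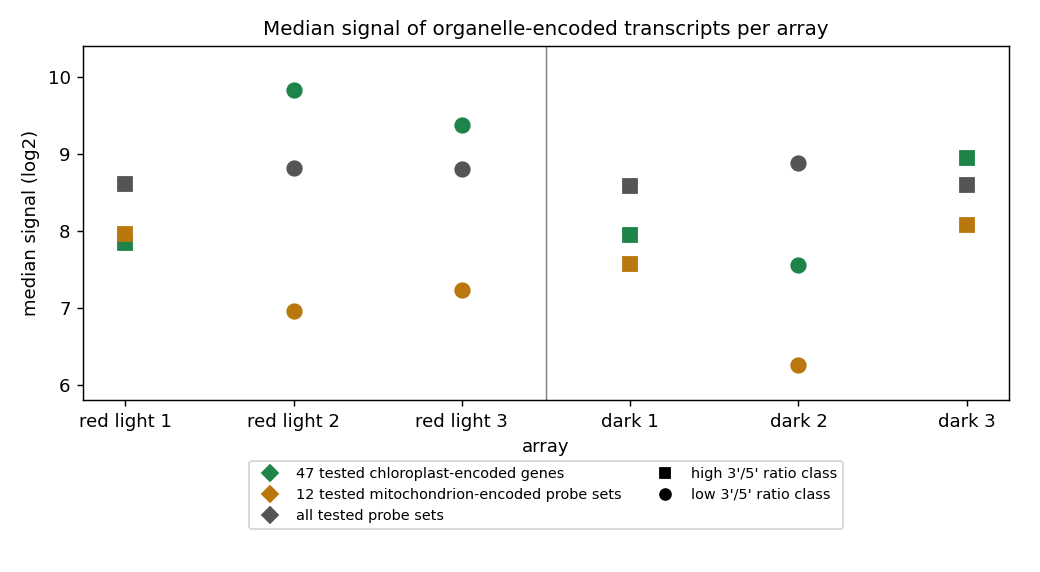
Median log2 signal on each array (red light 1 to 3 on the left, dark 1 to 3 on the right) of the 47 tested chloroplast-encoded genes, the 12 tested mitochondrion-encoded probe sets and all tested probe sets; squares are high-ratio and circles low-ratio arrays. Chloroplast genes stand at 9.82 and 9.37 on red light 2 and 3 and at 7.56 on dark 2, the dark array of the same class.

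Photosystem I takes electrons from plastocyanin and passes them to ferredoxin. Its psaB signal was 446, 968 and 602 in red light 1, 2 and 3, against 121, 54.4 and 103 in dark 1, 2 and 3. Every red light array lay well above every dark array, in both array classes. On the log2 scale the psaB change was 2.91 (SE 0.40), or 7.5-fold, with 3 arrays in each group and a limma adjusted p of 0.0225. By group alone the change was 2.86 (SE 0.44, limma adjusted p = 0.442). The change was 2.00 on high-ratio and 3.81 on low-ratio arrays. Over the alternatives with array class that tested psaB, its limma adjusted p ran from 0.000721 to 0.317. It missed 0.05 with plain eBayes (0.2), the replicate block (0.282) and the GAPDH ratio (0.317), and without red light 2 (0.127), red light 3 (0.111) or dark 3 (0.0597). The lowest of these p-values came without red light 1. That fit sets red light 2 and 3 against dark 2 alone and assumes that this lone array varies like the others.

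The partner of psaB in the reaction centre is psaA, which lies next to it in the gene order, and on the far side of psaB lies the ribosomal gene rps14. In plants these 3 genes are known to share a transcript. Neither neighbour passed the filter. The psaA signal was 12.6, 94.5 and 35.1 in red light 1, 2 and 3, against 9.4, 34.2 and 76.8 in dark 1, 2 and 3. Those groups overlapped, and dark 3 was above red light 1 and red light 3. The rps14 signals were 10.3 to 19.5 in red light and 2.4 to 36.6 in the dark.

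The iron-sulfur subunit gene psaC also did not pass the filter, and its full values are given because they were seen to separate the groups. Its signal was 56.1, 102 and 44.4 in red light 1, 2 and 3, against 6, 12.7 and 12.1 in dark 1, 2 and 3. All 3 red light arrays lay above all 3 dark arrays, with differences of 2.72 on high-ratio and 2.41 on low-ratio arrays. In limma without the filter psaC had a change of 2.56 (SE 1.0, adjusted p = 0.839).

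The other tested photosystem I genes were the assembly factor ycf4 and the small subunits psaI and psaJ, and none was called. The ycf4 signal was 94.1, 253 and 145 in red light 1, 2 and 3, against 59.9, 58.3 and 122 in dark 1, 2 and 3, and its change was 0.93 (SE 0.50). Dark 3 lay above red light 1. For psaJ the signal was 119.8, 1345 and 593 in red light 1, 2 and 3, against 161, 269.7 and 247 in dark 1, 2 and 3. Red light 1 was the lowest of its 6 arrays, and the change was 0.50 (SE 0.60). The psaI signal ran from 954 to 1396 in red light, against 78.4 on dark 2 and 5073 on dark 3, so its dark arrays spanned a far wider range than the change of 1.33 (SE 1.54).

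**Figure D2:**
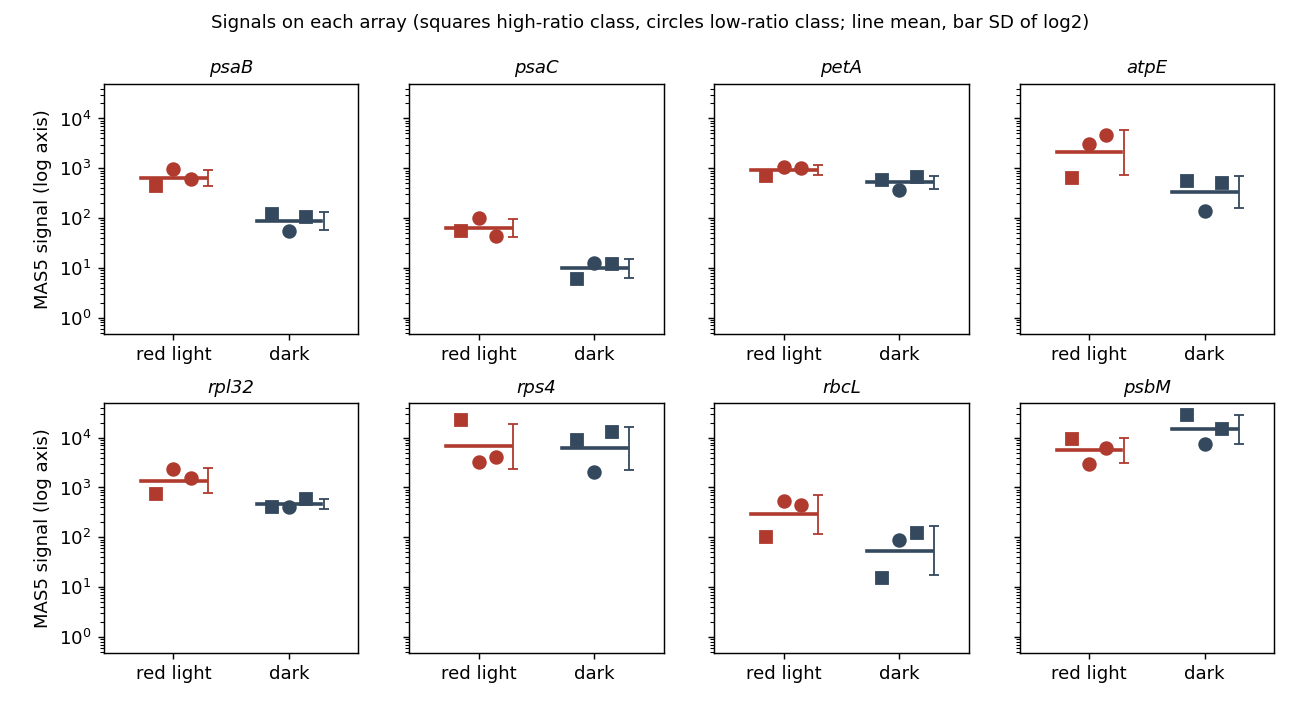
MAS5 signal (log axis) of psaB, psaC, petA, atpE, rpl32, rps4, rbcL and psbM on each array, red light left and dark right; squares are high-ratio and circles low-ratio arrays, the line is the mean and the bar the SD of log2 signal (n = 3). The groups do not overlap for psaB, psaC, petA, atpE and rpl32, and rps4 and psbM are highest on the high-ratio arrays of each group.

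Photosystem II splits water and reduces plastoquinone, and 9 of its 15 member genes were tested. None was called, 5 changes lay above 0 and 4 below, and the median was 0.12. The 4 below 0 were psbM, psbF, psbC and psbJ. The psbM gene encodes a small subunit at the dimer interface. Its signal was 9504, 3012 and 6083 in red light 1, 2 and 3, against 28542, 7333 and 14919 in dark 1, 2 and 3. Red light 1 lay above dark 2, so the groups overlapped. The change was -0.95 (SE 0.33), with a limma adjusted p of 0.641, and it was -1.12 on high-ratio and -0.78 on low-ratio arrays.

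The neighbouring genes psbE and psbF encode cytochrome b559, and psbL and psbJ beside them encode small subunits. These 4 genes followed array class. The psbF signal was 179.5, 669 and 664 in red light 1, 2 and 3, against 317, 649.6 and 267 in dark 1, 2 and 3. The psbJ signal was 143, 960.3 and 694 in red light 1, 2 and 3, against 109.7, 771 and 250.2 in dark 1, 2 and 3. In both, the 3 low-ratio arrays were the highest, whatever the treatment. All 4 were lower in the high-ratio class by limma, with limma class effects of -2.02 for psbE, -1.53 for psbF, -0.88 for psbL and -2.37 for psbJ (adjusted p of 0.0464 or less). Their changes with light were small, from -0.33 (SE 0.25) for psbF to 0.37 (SE 0.31) for psbL.

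The antenna gene psbC, for the chlorophyll protein CP43, had a signal of 70.9, 129 and 99.2 in red light 1, 2 and 3, against 124, 63 and 183 in dark 1, 2 and 3, and its change was -0.12 (SE 0.49). The highest change of the complex was that of psbI, 0.84 (SE 0.67), for a small subunit near the reaction centre. Its signal was 107, 241 and 344 in red light 1, 2 and 3, against 131, 53.4 and 242 in dark 1, 2 and 3, so dark 2 was the lowest array and dark 3 lay within the red light range. The gene psbA, for the D1 protein, did not pass the filter, with signals of 35.6 to 114 in red light and 4 to 164 in the dark.

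The cytochrome b6f complex carries electrons between the photosystems, and 2 of its 6 genes were tested. The petA gene encodes cytochrome f. Its signal was 696, 1048 and 1030.0 in red light 1, 2 and 3, against 575, 366 and 666 in dark 1, 2 and 3. The groups did not overlap, but the lowest red light array was only slightly above the highest dark array. The change was 0.84 (SE 0.29), with a limma adjusted p of 0.587, so it did not pass the test. The petB gene encodes cytochrome b6. Its signal was 332, 3286 and 2421 in red light 1, 2 and 3, against 306, 336 and 367 in dark 1, 2 and 3. Red light 1 lay among the dark arrays, and red light 2 and 3 lay far above them. The change was 1.53 (SE 0.73).

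The plastid ATP synthase makes ATP from the proton gradient across the thylakoid, and 4 of its 6 genes were tested. All 4 changes lay above 0, with a median of 1.94, and none was called. The adjoining genes atpB and atpE encode the beta and epsilon subunits of the catalytic head. The atpB signal was 207, 4611 and 5769 in red light 1, 2 and 3, against 52.6, 168 and 307 in dark 1, 2 and 3. The atpE signal was 643, 3092 and 4592 in red light 1, 2 and 3, against 543, 141 and 496 in dark 1, 2 and 3. Both stood far higher on red light 2 and 3 than on the other 4 arrays, while red light 1 was nearer to the dark arrays. The changes were 2.82 (SE 1.41) for atpB and 2.52 (SE 1.18) for atpE, with limma adjusted p-values of 0.822 and 0.802. For atpF, a stalk subunit of the membrane part, the signal was 90.1, 138 and 164 in red light 1, 2 and 3, against 56, 22 and 319 in dark 1, 2 and 3. Dark 3 was its highest array, and its change was 1.1 (SE 0.90). The alpha subunit gene atpA had signals of 221 to 1119.7 in red light and 76.9 to 517 in the dark.

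The NDH complex passes electrons from ferredoxin back to plastoquinone, and 4 of its 11 genes were tested, with 3 changes above 0, 1 below and none called. The ndhI signal, for an iron-sulfur subunit, was 537, 2337 and 1609 in red light 1, 2 and 3, against 534, 189 and 772 in dark 1, 2 and 3. Dark 2 was again the lowest array, and red light 1 lay between dark 1 and dark 3. The change was 1.55 (SE 0.93). The membrane subunit gene ndhD had a signal of 271, 536 and 1034 in red light 1, 2 and 3, against 292, 62.7 and 550.4 in dark 1, 2 and 3, and a change of 1.5 (SE 1.11). The ndhA signal, for another membrane subunit, was 63.2, 483 and 190.0 in red light 1, 2 and 3, against 37.1, 65.3 and 121 in dark 1, 2 and 3, and its change was 1.07 (SE 0.68). Dark 3 lay above red light 1. The ndhC gene moved with array class, with a limma class effect of 1.08 (adjusted p = 0.0132, higher on high-ratio arrays). Its signal was 1967, 1089 and 543 in red light 1, 2 and 3, against 1767, 1166 and 2372 in dark 1, 2 and 3, and its change with light was -0.33 (SE 0.29).

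The plastid ribosome translates all of these messages, and 14 of its 20 member probe sets were tested. All 7 large subunit genes and all 7 small subunit genes had changes above 0, with medians of 0.32 and 0.96, and none was called. The largest among the large subunit genes was that of rpl32. Its signal was 729, 2305 and 1542 in red light 1, 2 and 3, against 407, 404 and 598 in dark 1, 2 and 3. The groups did not overlap, and the change was 1.39 (SE 0.37), with a limma adjusted p of 0.382. For rpl33 the signal was 551, 1416 and 1237 in red light 1, 2 and 3, against 312, 806 and 781 in dark 1, 2 and 3, and the change was 0.44 (SE 0.34). Dark 2 and dark 3 lay above red light 1. For rpl20 the signal was 121, 169 and 239 in red light 1, 2 and 3, against 365, 33.2 and 853 in dark 1, 2 and 3. Dark 2 was by far the lowest array and dark 3 the highest, and the change was 0.20 (SE 1.24). It was -2.20 on high-ratio and 2.60 on low-ratio arrays.

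The rpl2 gene has a copy in each inverted repeat of the plastid genome, and its probe set cannot tell the copies apart. Its signal was 891, 4906 and 6999 in red light 1, 2 and 3, against 773, 3265 and 1006 in dark 1, 2 and 3. The 3 low-ratio arrays were the highest, and limma gave -2.3 for high-ratio arrays (adjusted p = 0.000146) against a change of 0.43 (SE 0.25) with light.

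Among the small subunit genes, rps4 had the smallest p. Its signal was 22586, 3303 and 4021 in red light 1, 2 and 3, against 8972, 2002 and 13141 in dark 1, 2 and 3. Its high-ratio arrays were the brightest, and within each class every red light array lay above every dark array. The change was 0.96 (SE 0.21), with a limma adjusted p of 0.193, and it was 1.06 on high-ratio and 0.86 on low-ratio arrays. By group alone it was 0.12 (SE 0.91). The rps19 signal was 506, 1434 and 2359 in red light 1, 2 and 3, against 334, 529 and 521 in dark 1, 2 and 3. Dark 2 and dark 3 lay just above red light 1, and the change was 1.04 (SE 0.37). The rps18 signal was 581, 629.5 and 507 in red light 1, 2 and 3, against 392, 279.6 and 620.1 in dark 1, 2 and 3, with a change of 0.63 (SE 0.28). Dark 3 lay within the range of its red light arrays. For rps7, which has a copy in each inverted repeat, the signal was 275, 1367 and 1639 in red light 1, 2 and 3, against 275, 63.6 and 305 in dark 1, 2 and 3. Red light 2 and 3 stood apart from the other arrays, and the change was 2.24 (SE 1.20).

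The plastid RNA polymerase is built from the products of 4 plastid genes, and 3 were tested, with all changes above 0 and none called. The rpoC2 signal was 137, 307 and 348 in red light 1, 2 and 3, against 61.6, 64.2 and 168 in dark 1, 2 and 3. Dark 3 lay above red light 1, and the change was 1.39 (SE 0.51), with a limma adjusted p of 0.654. The rpoC1 signal was 161, 372 and 698 in red light 1, 2 and 3, against 184, 45.7 and 569.7 in dark 1, 2 and 3, and its change was 1.23 (SE 1.27). These 2 genes adjoin each other and encode the beta'' and beta' subunits. The alpha subunit gene rpoA lies elsewhere, in a ribosomal gene cluster. Its signal was 5107, 693 and 913 in red light 1, 2 and 3, against 1176, 1274 and 1988 in dark 1, 2 and 3. Red light 1 stood far above the other 5 arrays, while red light 2 and 3 were the lowest. Its change was 0.53 (SE 0.58).

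The remaining 7 tested genes serve no shared complex, and all had changes above 0, with a median of 1.72 and no call. The rbcL gene encodes the large subunit of Rubisco, which fixes carbon dioxide. Its signal was 101, 536 and 445 in red light 1, 2 and 3, against 14.9, 87.6 and 122 in dark 1, 2 and 3. Dark 3 lay above red light 1, and the change was 1.86 (SE 0.77). With all arrays its limma adjusted p was 0.7. The dark mean of rbcL lay below the filter, so it passed through its red light signals. Without dark 3, its highest dark array, the change was 2.60, which is no separate support. The matK gene encodes a splicing factor for plastid introns. Its signal was 693, 4439 and 3765 in red light 1, 2 and 3, against 531, 221 and 709 in dark 1, 2 and 3, and its change was 2.19 (SE 1.06). The ycf1 gene, for a component of the protein import machinery, had a signal of 145, 1216 and 1120.3 in red light 1, 2 and 3, against 112, 101 and 214 in dark 1, 2 and 3, and a change of 1.72 (SE 0.87). In both, red light 2 and 3 stood far above every other array. The clpP gene, for a subunit of the stromal protease, had signals of 484 to 3674 in red light and 85.7 to 965 in the dark. The accD gene, for a subunit of the enzyme that starts fatty acid synthesis, had signals of 124 to 957 in red light and 26.7 to 576 in the dark, and the groups of both genes overlapped.

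**Figure D3:**
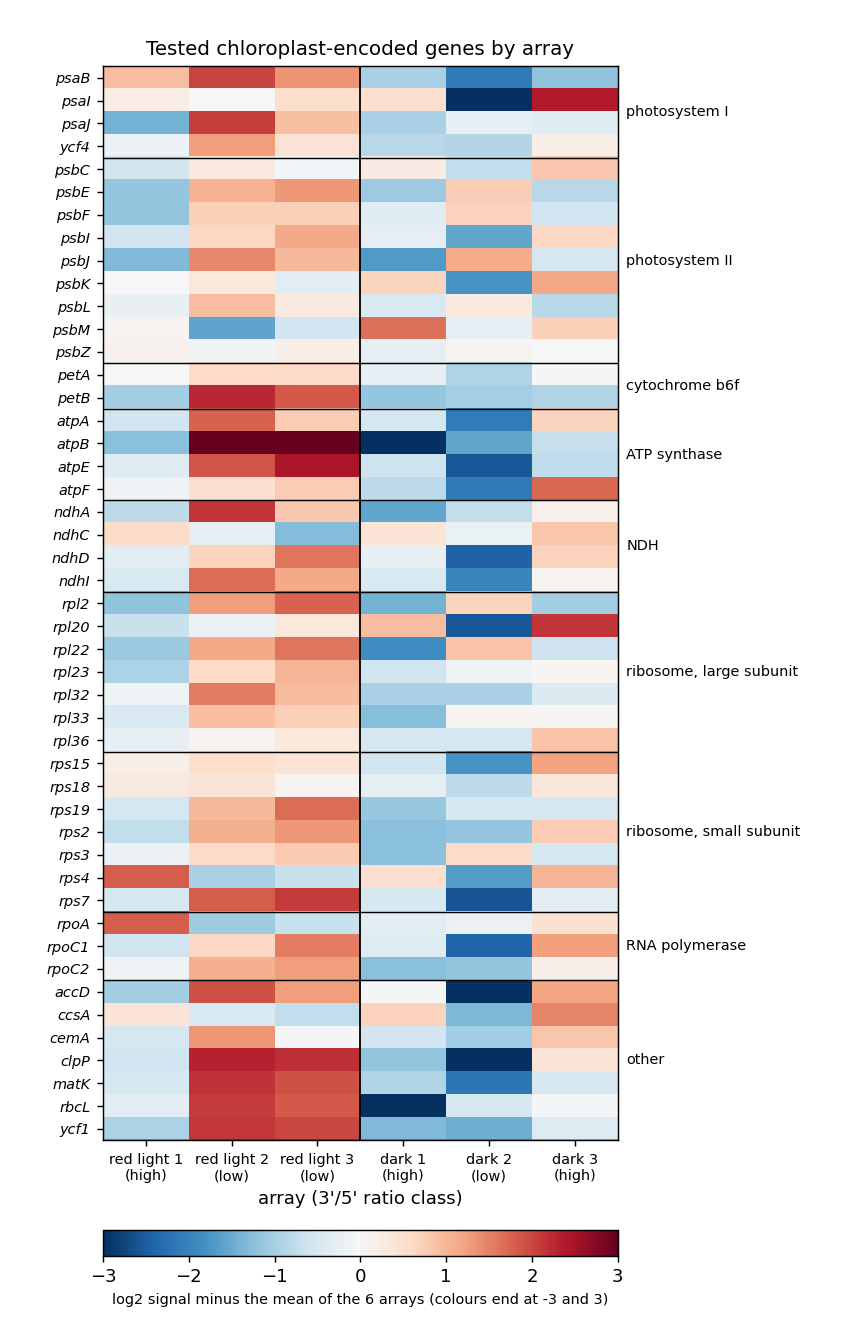
Log2 signal of the 47 tested chloroplast-encoded genes minus each gene's mean over the 6 arrays, by complex (rows) and array (columns, red light left, dark right, array class in brackets). Dark 2 is the lowest array for 26 of the 47 genes, and red light 2 is the highest for 20.

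Light and dark were next compared within each array class. In the low-ratio class, 43 of 47 genes had a change above 0 (91.5%, against 45.1% of all tested probe sets), with a median of 1.80. In the high-ratio class it was 19 of 47 (40.4%, against 48.9%), with a median of -0.09. The class medians of the complexes lay furthest apart for the ATP synthase, 4.05 in the low-ratio and -0.13 in the high-ratio class. They were closest for the large ribosomal subunit, at 0.84 and 0.02. Photosystem II had 0.32 and -0.70. These are medians over genes that share arrays and often transcripts, and no test was made of complexes against each other.

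The difference between classes was tested gene by gene with an interaction term in limma, a fit chosen after the data were seen. It sets red light 1 against dark 1 and 3, and red light 2 and 3 against dark 2, so each class has 1 lone array. For 11 of the 47 genes (23.4%) the change differed between the classes at an adjusted p under 0.05, beside 0.843% of all tested probe sets and 2 of the 12 tested mitochondrion-encoded ones. The 11 were atpE, petB, ndhD, ndhI, rpl20, rps7, rpoA, accD, clpP, matK and ycf1. In 10 of them the change was higher in the low-ratio class. The smallest adjusted p was shared by rps7 and atpE. For rps7 the change was -0.08 on high-ratio and 4.56 on low-ratio arrays (limma adjusted p = 0.000283), and for atpE it was 0.31 on high-ratio and 4.74 on low-ratio arrays. The largest difference was that of accD, with -1.60 on high-ratio and 4.84 on low-ratio arrays (limma adjusted p = 0.000863). Only rpoA went the other way, with 1.74 on high-ratio and -0.68 on low-ratio arrays (limma adjusted p = 0.026). For psaB the difference did not pass, at -1.81 for high-ratio minus low-ratio arrays (limma adjusted p = 0.228). With plain eBayes 2 of the 47 genes passed.

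**Figure D4:**
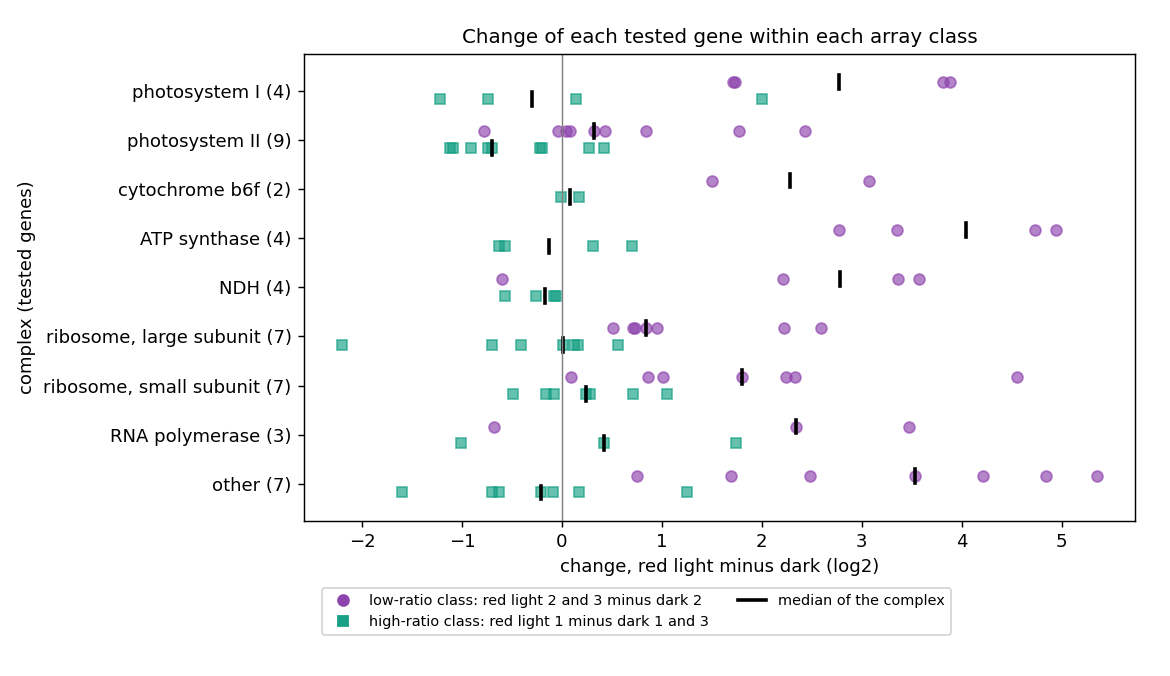
Change of each tested gene (red light minus dark, log2) by complex within the low-ratio class (circles, red light 2 and 3 minus dark 2) and the high-ratio class (squares, red light 1 minus dark 1 and 3); black ticks are medians. ATP synthase genes lie at 2.77 to 4.94 in the low-ratio class and at -0.63 to 0.71 in the high-ratio class.

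Along the chloroplast genome, the changes of adjoining genes were compared. Gene order was read from RefSeq (TAIR10.1), whose build may differ from that of the array design, so no positions are given. For the 29 adjoining pairs with both genes tested, the median absolute difference in change within the low-ratio class was 0.95, against 1.63 over all 1081 pairs. In the high-ratio class it was 0.54 against 0.69, and in the fit with array class it was 0.43 against 0.85. For the array class effect the values were close, at 1.14 for adjoining pairs and 1.23 over all pairs. The run psbK, psbI, atpA and atpF had changes of 1.77 to 3.36 in the low-ratio class and -0.91 to -0.57 in the high-ratio class. The run psbE, psbF, psbL and psbJ had changes of only 0.04 to 0.44 in the low-ratio class. The ribosomal run rpl23, rpl2, rps19, rpl22 and rps3 had 0.09 to 1.80 there, and was lower in the high-ratio class by 0.94 to 2.3. These runs were picked after their values were seen. The Spearman correlation between annotated gene length and change was 0.55 in the fit with array class, 0.49 within the low-ratio class and 0.21 within the high-ratio class. It is over the 47 genes, which share arrays and transcripts and are not independent.

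**Figure D5:**
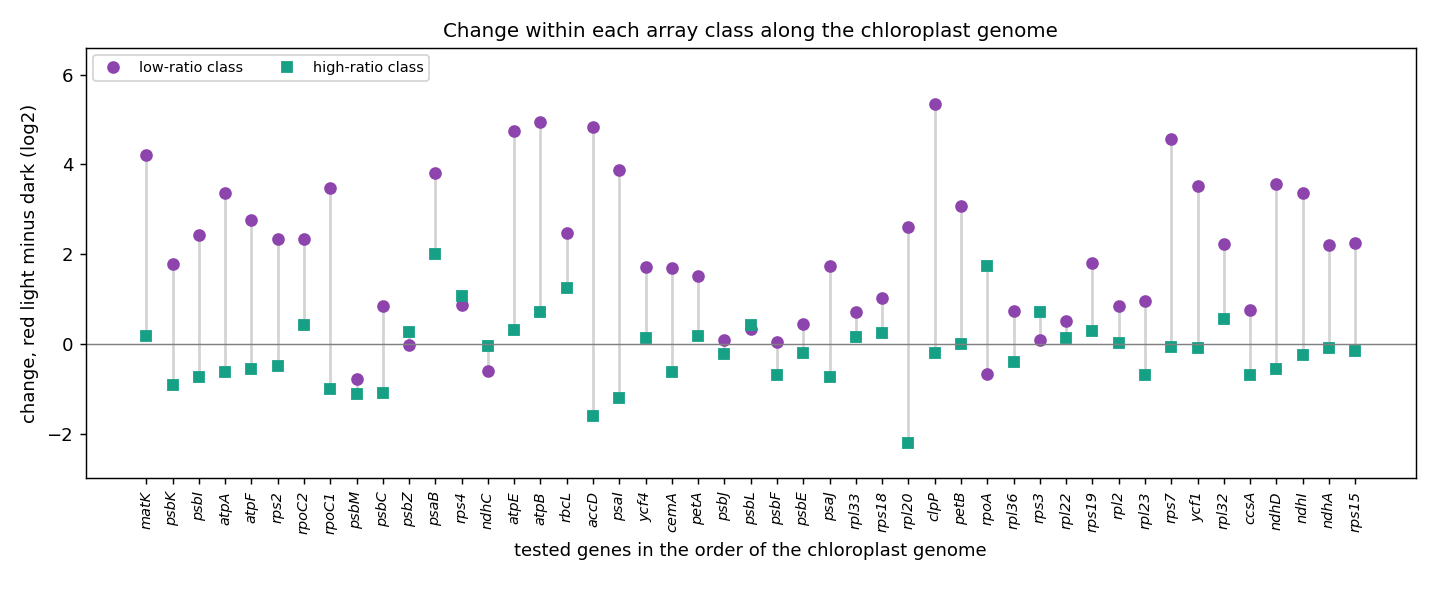
Change (red light minus dark, log2) of the 47 tested genes within the low-ratio class (circles) and the high-ratio class (squares), in the order of the chloroplast genome. The psbJ to psbE stretch lies within -0.70 to 0.44 in both classes, and psaB is the gene with the highest value in the high-ratio class, 2.00.

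The 30 member probe sets below the filter had signals from 0.8 to 298. Their median was 59.4, 49.2 and 43.6 in red light 1, 2 and 3, against 54.2, 11.1 and 111.0 in dark 1, 2 and 3, so dark 2 was the lowest array here as well. Over all 77 probe sets, every red light array was above every dark array in 7, and every red light array was below in 0, beside 3.93% of all tested probe sets. The 4 tested ones were psaB, petA, atpE and rpl32, which is 8.5% of 47, beside 2.23% of all tested probe sets. The 3 untested ones were psaC, rpl14 and 1 of the 2 probe sets for rps12. That rps12 probe set had a signal of 75.4, 262 and 256 in red light 1, 2 and 3, against 24.2, 28.6 and 33.7 in dark 1, 2 and 3. The other rps12 probe set had signals of 4.3 to 59 in red light and 0.8 to 155 in the dark, so the pair for 1 gene disagreed. The rpl14 signal was 84.4, 175 and 90.9 in red light 1, 2 and 3, against 56.7, 23.6 and 63.9 in dark 1, 2 and 3, and dark 2 was its lowest array.

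Array class itself was called by limma for 13 of the 47 genes (27.7%), beside 36.8% of all tested probe sets. It was lower in the high-ratio class in 9 and higher in 4. The 4 were rps4, ndhC, psbM and ccsA, the last a cytochrome assembly gene.

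Genes of the same pathways that lie in the nucleus or in the mitochondrial genome were set beside the members, and none was called. Of 10 named nuclear photosynthesis probe sets, 9 were tested, with 6 changes above 0 and a median of 0.23. By group alone 3 lay above 0 and the median turned to -0.14. Within classes it was -0.25 in the low-ratio and 0.71 in the high-ratio class. PSAN, for a lumenal photosystem I subunit, had a signal of 569.7, 224 and 167 in red light 1, 2 and 3, against 344, 158 and 374 in dark 1, 2 and 3, and a change of 0.48 (SE 0.27). LHCB4.1, for an antenna protein of photosystem II, had a signal of 494, 616 and 375 in red light 1, 2 and 3, against 556, 641 and 633 in dark 1, 2 and 3, and a change of -0.34 (SE 0.25). Of the nuclear genes of plastid RNA processing, 3 were tested, and the pair with the smallest p had changes of 0.13 (SE 0.39) for CFM3A and 0.07 (SE 0.37) for RH39. The nuclear NDH gene NdhS had a change of -0.33 (SE 0.28), and the plastid division genes FTSZ2-1 and FTSZ2-2 had -0.06 (SE 0.25) and 0.09 (SE 0.33). The list of plastid transcription genes, which holds the sigma factors, had 0 named probe sets and is not analysed here.

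The 12 tested mitochondrion-encoded probe sets all had changes above 0, with a median of 0.66. The median was 1.07 in the low-ratio class and -0.07 in the high-ratio class. None was called, and 4 had an unadjusted p under 0.05. In the interaction fit, 2 of these 12 differed between the classes. They were ccb382, with -2.63 on high-ratio and 3.49 on low-ratio arrays (limma adjusted p = 0.000283), and nad4, with -0.65 on high-ratio and 3.02 on low-ratio arrays (limma adjusted p = 0.0064). The respiratory chain gene nad9, of complex I, had a signal of 448, 175 and 110.2 in red light 1, 2 and 3, against 169, 59.1 and 326 in dark 1, 2 and 3. Dark 2 was its lowest array, and the change was 1.08 (SE 0.37), with a limma adjusted p of 0.581. The cox2 gene, for a subunit of cytochrome c oxidase, had a signal of 375, 121 and 165 in red light 1, 2 and 3, against 217, 82.4 and 211 in dark 1, 2 and 3, and a change of 0.79 (SE 0.31). The root markers had changes below 0 in 4 of 4 cases, with none called and a median of -0.90. XTH26 had a change of -0.81 (SE 0.24) and EXPA18 of -1.0 (SE 0.35). The root marker EXPA7 also differed between the classes in the interaction fit, so this was not limited to organelle transcripts. Its change was -3.19 on high-ratio and 0.11 on low-ratio arrays. Its signal was 16.6 on red light 1, against 140 on dark 1 and 165 on dark 3.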

How the data were processed

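The authors deposited MAS5 intensities, linear and 1 for each probe set, for every array, per the submitters' processing notes (version and detection calls not given in the sources used here). The 2% trimmed means were 500.04 to 500.06. RNA (5 µg) was primed with oligo-dT, per the labels' protocols. The labels call the samples biological replicates. Array medians were 150.0 to 176.4, and the number of arrays limits the precision.

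Of 22810 probe sets, 64 controls were set aside. Log2 values were taken with no pseudocount (0 values were 0). Probe sets with a mean above the 40th percentile were fitted with limma 3.58.1 with trend and robust eBayes (R 4.3.3, statmod 1.5.0), by group alone (4 residual degrees of freedom) or group and array class (3), and adjusted by Benjamini and Hochberg over 13647 probe sets, 2-sided, at 0.05. Array class was set by a GAPDH 3'/5' ratio above 5. The median standard error over all tested probe sets was 0.27 with array class. Both fits were tested on simulated data.

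The platform annotation gave 1 gene ID for 69 member probe sets and 2 IDs of 1 symbol for 8 (copies in the inverted repeats, and rps12). It listed 13513 probe sets with 1 gene, 503 with several and left 8730 unlisted, which were fitted but stay unnamed. Nuclear lists hold only genes with a named probe set. Signals per array are given for members called, for the 3 with the smallest p in each complex and for those below 0, and psaA, psaC, rpl14, rps12, rpl20 and rps7 were added after their values were seen. In each outside list the 2 genes with the smallest p are named, and ccb382, nad4 and EXPA7 were added for their difference between the classes. The members, lists and the fit with array class were chosen with earlier results of these data known. Alternatives were another scaling, a pseudocount of 16, other filters, plain eBayes, array weights, a replicate block, the GAPDH ratio as covariate, and leaving out each array. Deviations of same-numbered arrays from their group means correlated at 0.58, 0.64 and -0.32 for numbers 1, 2 and 3. Arrays numbered 1 share an array class, as do those numbered 2, while those numbered 3 do not. These values therefore cannot tell pairing from array class. The numbers were not taken as pairs in the main fits, and the replicate block was run as an alternative.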

Additional observations from a re-analysis of the deposited data

Results flagged for a closer look

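On red light 3 the 25S ribosomal RNA control gave 1376.8, against 89.3 on red light 1, 119.7 on red light 2 and 76 to 122.9 on the dark arrays. This control probe set is part of no comparison, and it is listed because 1 red light array lies above every dark array.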

How the results depend on the processing

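By group alone, 0 chloroplast-encoded genes and 0 of all probe sets were called. With no filter the median change of cytochrome b6f was 0.454 over 6 probe sets, against 1.425 over the 2 that passed the filter. For NDH it was 0.192 over 11, against 1.368 over 4. With the stricter filter 26 of 29 tested genes lay above 0. Array weights called 2261 probe sets and 25 members, with a photosystem II median of 0.813, and the GAPDH ratio as covariate called 22 and 1. Each class alone has 3 arrays, 1 of them the lone array of its treatment, and 1 residual degree of freedom, so its counts of calls are weak evidence. The high-ratio class alone called 162 and 2, with 19 genes above 0 and medians of -0.299 for photosystem I, -0.697 for photosystem II, 0.078 for cytochrome b6f, -0.130 for ATP synthase, -0.170 for NDH, -0.212 for other genes and -0.089 for all. The low-ratio class alone called 274 and 28, with medians of 2.769 for photosystem I, 2.286 for cytochrome b6f, 4.047 for ATP synthase, 2.788 for NDH, 1.798 for the small ribosomal subunit, 3.530 for other genes and 1.798 for all, and the change of rpl20 turned to 2.597. Leaving out 1 array called 0 to 15 probe sets and 0 to 3 members, the highest without red light 1, with photosystem II medians of 0.056 to 0.809.

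With array class, 17 probe sets and 1 member were called. Scaling to the median called 33 probe sets. With no filter 66 of 77 member probe sets lay above 0. The stricter filter tested 29 members, without psaB. It called 0 of them, and 25 of the 29 lay above 0. Plain eBayes called 5 probe sets and 0 members. The GAPDH covariate called 7 and 0, with a photosystem I median of 0.219. With the replicate block 17 probe sets and 0 members were called, with a psaB adjusted p of 0.282 in limma. Leaving out 1 array gave 6 to 288 probe sets, 0 to 15 members called and 19 to 44 above 0. The medians then ran from -0.299 to 2.769 for photosystem I, -0.697 to 0.321 for photosystem II, 0.078 to 2.286 for cytochrome b6f, -0.130 to 4.047 for ATP synthase, -0.170 to 2.788 for NDH, 0.237 to 1.798 for the small ribosomal subunit, -0.212 to 3.530 for other genes and -0.089 to 1.798 for all. The low ends came without dark 2, where 288 probe sets were called and rpl20 turned to -2.201, and the 15 members came without red light 1. With array class fitted, both of these leave 1 array of a treatment in the only class that holds both, and assume that it varies like the others. The cause was not tested. The interaction of light and class, added after seeing the data, called 115 probe sets and 11 members, against 76 with quantile scaling, 74 with no filter, and 18 and 2 with plain eBayes. Leaving out genes with 2 copies, also added later, kept 17 and 1 called.

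The precision rests on 3 arrays per group, and each class holds 1 lone array of a treatment. Detection calls were not used here.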
